A study of Mus musculus with 8 samples.

Results

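The genes of the constitutive proteasome and of its assembly factors were examined in activated mouse B cells that lacked or retained the RNA helicase gene Eif4a1. Members were chosen by name from the gene tables, as every symbol made of Psma, Psmb, Psmc, Psmd, Psme or Psmg and a number, together with Pomp. The immunoproteasome genes Psmb8, Psmb9 and Psmb10 and the pseudogenes marked -ps were left out. This gave 48 of the 53242 genes in the tables. The name rule also took in Psmc3ip and Psme3ip1, whose products bind a proteasome subunit or activator and are not part of the complex, and these were kept apart below.

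RNA was sequenced from splenic B cells of C57BL/6 mice aged 8 to 12 weeks, 4 of the genotype Eif4a1+/+ CD23-cre (control) and 4 with floxed Eif4a1 alleles and the same transgene, Eif4a1fl/fl CD23-cre (4A1 KO). Both genotypes carried the cre transgene, which is driven by Fcer2a sequences and acts late in B cell maturation, and the loxP sites flank exons 2 to 4 of Eif4a1. The B cells had spent 24 h with IL4 at 40 ng/ml on irradiated CD40LB feeder cells, a line that presents CD40 ligand and BAFF and that was depleted with an antibody before the RNA was taken. Libraries were numbered 1 to 4 within each genotype. Replicates 1 and 2 were batch A and replicates 3 and 4 batch B, with males in 1 and 3 and females in 2 and 4, and replicate 1 was left out of the tests because the study had removed it for viability (n = 3 per genotype). Values of all 8 libraries are given beside the tests.

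The proteasome degrades proteins marked with ubiquitin. Its barrel-shaped core, the 20S particle, holds alpha rings that gate the entrance and beta rings that carry the proteolytic sites, and the 19S regulatory particle binds, unfolds and feeds in the substrate. Dedicated chaperones build both particles, and in lymphocytes the catalytic beta subunits can be exchanged for immunoproteasome subunits.

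Eif4a1 had 748 to 939.6 CPM (counts scaled to the size of each library with the TMM factors of edgeR) in the 4 control libraries and 556 to 689 in the 4 4A1 KO libraries. The change was a log2 fold change of -0.44 (SE 0.05, adjusted p = 0.000115), and the counts span the gene, so that transcripts that kept or lost the floxed exons were not distinguished. Library totals were 38488341 to 43210858 counts in the 6 libraries tested, and the smallest of the 8 held 31727557. The summed TPM (estimates per transcript length and library size) of 6 B cell markers was 2373 to 2590 in control and 1727 to 1934 in 4A1 KO libraries, and 4 of these 6 genes fell. The 8 markers of the feeder fibroblasts summed to 17.9 to 39.6 TPM in control and 11.6 to 28.3 in 4A1 KO. Thy1 made up 5.75 to 36.4 and 5.16 to 23.2 TPM of this, and the other 7 summed to 3.20 to 14.6 TPM in control and 4.95 to 9.52 in 4A1 KO, higher in 4A1 KO in 3 of 4 pairs. Of the 6 feeder markers tested Thy1 and Col3a1 fell and Fn1 rose, by 0.86 on the log2 scale, and Dcn and Postn were at 0 TPM in every library, with at most 1 count. Markers of myeloid cells summed to 2.76 to 5.32 TPM in control and 4.02 to 6.35 in 4A1 KO, and those of T cells to at most 0.183. Of the 3 myeloid markers tested Adgre1 rose, by 0.62 on the log2 scale, and 2 did not pass. The part of these differences in the values below was not tested. In bulk RNA, fewer cells of a type and less of an mRNA in each cell cannot be told apart.

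Most of the core and regulatory particle genes were lower in 4A1 KO B cells, by modest amounts, and the activators were not. Of the 48 members 46 had enough counts for the edgeR test. Of these, 26 fell (56.5%) at an adjusted p under 0.05, 6 rose (13.0%) and 14 did not pass, against 26.7% of the 14218 genes tested that fell and 26.3% that rose. The median log2 fold change of the 46 members was -0.18 and that of all genes tested was 0.01. Without Psmc3ip and Psme3ip1, 25 of 44 fell and 5 rose, with a median of -0.18. The fold changes ran from -0.73 for Psmc3ip to 0.45 for Psmd8. With a further threshold of 0.5 on the absolute log2 fold change, 4 members were decreased (Psmc3ip, Psmd12, Psmd13 and Psma1; 13.7% of all genes tested met this rule) and 0 were increased by edgeR (11.6% of all genes) and 0 by DESeq2, with 6 that rose at adjusted p alone. The 3 subunits among the 4 lie close to that threshold, and the count was 2 without replicate 2 and 1 without replicate 3. The number that rose fell to 2 without replicate 2 (19.2% of all genes tested rose) and to 2 without the replicate block (17.2%).

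**Figure D1:**
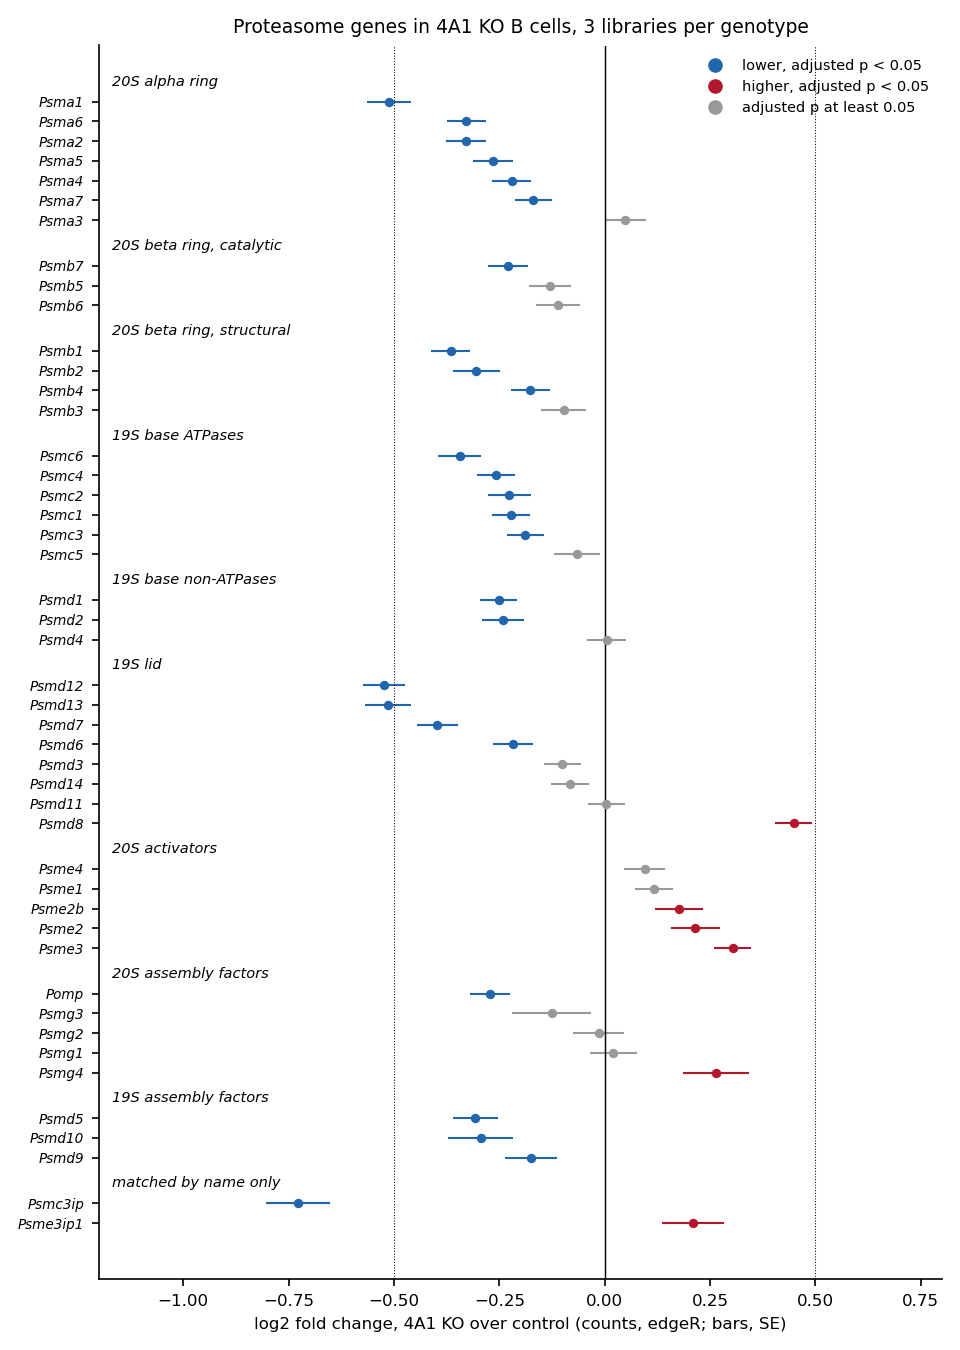
Log2 fold change (x axis, 4A1 KO over control, edgeR on counts, 3 libraries per genotype) of the 46 tested proteasome genes, grouped by role; bars are standard errors and dotted lines mark 0.5 on either side of 0. The 20S and 19S genes lie mostly left of 0, down to -0.52 for Psmd12, while the 5 activators and Psmd8 lie to the right.

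Pair 1, the batch A males, took no part in the test that chose the 26 members that fell and the 6 that rose. In this pair 26 of the 26 were lower in 4A1 KO than in control, as were 97.9% of all 3801 genes that fell, and 5 of the 6 were higher, Psme2b being the exception, as were 95.5% of all 3737 genes that rose. The members thus kept their direction much as other genes past the test did. The median difference of the 46 members was -0.17 in pair 1, -0.19 in pair 2, -0.25 in pair 3 and -0.14 in pair 4 on the log2 CPM scale. Over all genes tested the pair medians lay between -0.01 and 0.01. All 4 pairs went down in 31 of the 46 members (67.4%) and up in 7 (15.2%), against 33.6% and 33.5% of all genes tested. In 24 members the genotypes were apart with all 4A1 KO libraries lower (19.6% of all genes tested), in 2 members, Psmd8 and Psme3, all 4A1 KO libraries were higher (17.3% of all genes), and in 20 the genotypes overlapped. Of the 26 that fell, Psmd5, Psma7 and Psmb4 overlapped in the 8 libraries.

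**Figure D2:**
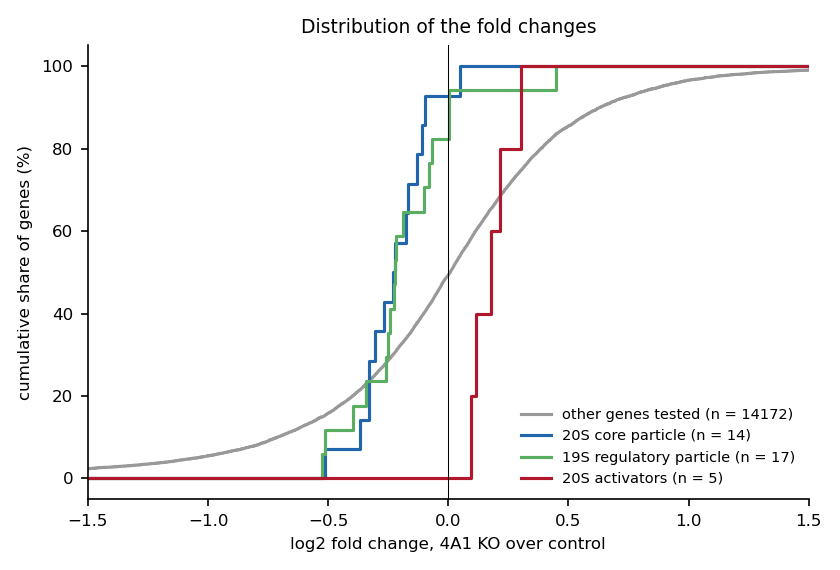
Cumulative share of genes (y axis, percent) against log2 fold change (x axis, 4A1 KO over control) for the 14 tested genes of the 20S core, the 17 of the 19S particle, the 5 activators and the 14172 other genes tested. The steps of the 20S and 19S genes cross 50% near -0.22, the activators near 0.18 and the other genes near 0.01.

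The outer rings of the 20S core, built from alpha subunits, fell almost as a whole. Of 7 tested genes 6 fell (85.7%, against 26.7% of all genes tested) and 1, Psma3, did not pass. The median log2 fold change was -0.27. Psma1 (chromosome 7 of GRCm39 from 113863679 to 113875409, minus strand) had 247, 260.0, 252 and 246 CPM in controls 1 to 4 and 169, 177, 167 and 188 in the 4A1 KO libraries. The highest 4A1 KO library thus stayed well below the lowest control library. The mean of Psma1 fell from 253 ± 6.88 to 177 ± 10.2 CPM (SD, n = 3), and its log2 fold change was -0.51 (SE 0.05, adjusted p = 7.69e-05). The other 5 that fell, Psma6, Psma2, Psma5, Psma4 and Psma7, changed by between -0.33 and -0.17, and Psma7 no longer passed without replicate 2 (adjusted p = 0.0628) or without the block (0.0719). Psma3 had a log2 fold change of 0.05 (SE 0.05, adjusted p = 0.427). A processed pseudogene, Gm13835, is identical to Psma3 over 665 nt and had 25.3% of its counts, so reads of the gene may have been split between them. With the pseudogene's counts added the fold change of Psma3 was 0.04. Psma8, which replaces Psma7 in germ cells, did not pass the filter and had between 1 and 12 counts per library.

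Among the catalytic beta subunits 1 of the 3 genes tested fell (33.3%, near the 26.7% of all genes tested), with a median log2 fold change of -0.13. Psmb7 (chromosome 2 from 38478044 to 38534099, minus strand), which carries the trypsin-like site, had 224, 223, 223 and 216 CPM in control and 198, 186, 185 and 193 in 4A1 KO libraries, with no overlap. Its log2 fold change was -0.23 (SE 0.05, adjusted p = 0.00336), a decrease of 14.7%. Psmb5 (chromosome 14 from 54850776 to 54855481, minus strand), the chymotrypsin-like subunit, had 113, 110.3, 106 and 100.2 CPM in control and 111, 101, 94.2 and 94.3 in 4A1 KO. The genotypes overlapped, with 4A1 KO 1 above controls 2 to 4 and 4A1 KO 2 above control 4, and the log2 fold change of -0.13 (SE 0.05) had an adjusted p of 0.0523. With DESeq2's size factors the adjusted p was 0.0494. Psmb6 (chromosome 11 from 70416183 to 70418684, plus strand), the caspase-like subunit, had 219, 211, 206 and 180.3 CPM in control and 206, 194, 178 and 179.7 in 4A1 KO. Control 4 lay within the range of the 4A1 KO libraries, and the log2 fold change was -0.11 (SE 0.05, adjusted p = 0.106). Without replicate 4 the log2 fold change was -0.16 (adjusted p = 0.0291). Psmb11, the catalytic subunit of thymic epithelium, had at most 2 counts in a library and was not tested.

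The structural beta subunits were closer to the alpha ring. Of these 4 genes 3 fell (75%, against 26.7% of all genes tested), with a median of -0.24 over the 4. Psmb1 (chromosome 17 from 15691080 to 15720013, minus strand) had 213, 209.7, 198 and 193 CPM in control and 171, 160.1, 151 and 155 in 4A1 KO. Its groups did not overlap, and it fell by 0.37 on the log2 scale (SE 0.05, adjusted p = 0.000224). Psmb2 fell by 0.30 and Psmb4 by 0.18, the latter not past the test without replicate 2 (adjusted p = 0.0835) or without the block (0.0684), and Psmb3 had -0.10 (adjusted p = 0.151). Over the 14 tested genes of the core, 10 fell (71.4%, against 26.7% of all genes tested) and 0 rose (against 26.3%). The median was -0.22, and the range without Psma1 was -0.37 to 0.05.

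In the base of the 19S particle, the ring of ATPases that unfolds the substrate fell in 5 of 6 genes (83.3%, against 26.7% of all genes tested). Their median was -0.22. Psmc6 (chromosome 14 from 45567215 to 45587169, plus strand) had the largest change. It had 166, 161, 176 and 191 CPM in control and 136, 136, 136 and 144 in 4A1 KO, so the 4A1 KO libraries sat close together below all the controls. The log2 fold change was -0.34 (SE 0.05, adjusted p = 0.000545). Psmc4, Psmc2, Psmc1 and Psmc3 fell by between 0.19 and 0.26, and Psmc5 had -0.07 (adjusted p = 0.333). Psmd1 and Psmd2, the large scaffold subunits of the base, fell by 0.25 and 0.24. Psmd1 (chromosome 1 from 85992097 to 86070048, plus strand) had 432, 429, 428 and 414 CPM in control and 356, 349.9, 361 and 357 in 4A1 KO, without overlap (SE 0.04, adjusted p = 0.00129). Psmd4, a ubiquitin receptor, had a log2 fold change of 0.00 (SE 0.05, adjusted p = 0.944).

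The lid, which removes the ubiquitin chain, was mixed. Of its 8 genes 4 fell (50%, against 26.7% of all genes tested), 1 rose (12.5%, against 26.3%) and 3 did not pass. Psmd12 (chromosome 11 from 107370246 to 107395206, plus strand) had 172, 175, 189.7 and 189.6 CPM in control and 112, 118, 128 and 139.7 in 4A1 KO. Psmd13 (chromosome 7 from 140461854 to 140478560, plus strand) had 166, 176, 163 and 159.7 CPM in control and 118, 117, 111 and 121 in 4A1 KO. In both genes the 4A1 KO libraries lay under all controls, and both encode subunits that hold the lid together by their PCI domains. Psmd12 had a log2 fold change of -0.52 (SE 0.05, adjusted p = 5.13e-05) and Psmd13 of -0.51 (SE 0.05, adjusted p = 8.3e-05). Psmd12 fell by 30.5% and Psmd13 fell by 29.98%. Psmd7 (chromosome 8 from 108307010 to 108315121, minus strand), the partner of the lid's deubiquitinase, had 235, 241, 259 and 249 CPM in control and 185, 179, 189 and 201 in 4A1 KO, again without overlap, and a log2 fold change of -0.40 (SE 0.05, adjusted p = 0.000195). Psmd6 fell by 0.22.

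The deubiquitinase itself, Psmd14 (chromosome 2 from 61542026 to 61631607, plus strand), changed little. It had 189, 184, 192 and 189 CPM in control and 182, 175, 178 and 181 in 4A1 KO. The 4A1 KO libraries lay under all controls, but the log2 fold change of -0.08 (SE 0.05) did not pass the test (adjusted p = 0.158). Psmd3 had -0.10 (adjusted p = 0.0803) and Psmd11 0.00 (adjusted p = 0.945). Psmd8 (chromosome 7 from 28873612 to 28880135, minus strand), a small subunit that joins the lid last, went the other way. It had 328, 299.6, 281 and 283 CPM in control and 432, 398, 393 and 388 in 4A1 KO. The lowest 4A1 KO library was above the highest control library, and the log2 fold change was 0.45 (SE 0.04, adjusted p = 5.72e-05), an increase of 36.5%. Of the 31 tested core and 19S genes Psmd8 alone rose at an adjusted p under 0.05 (26.3% of all genes tested rose).

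**Figure D3:**
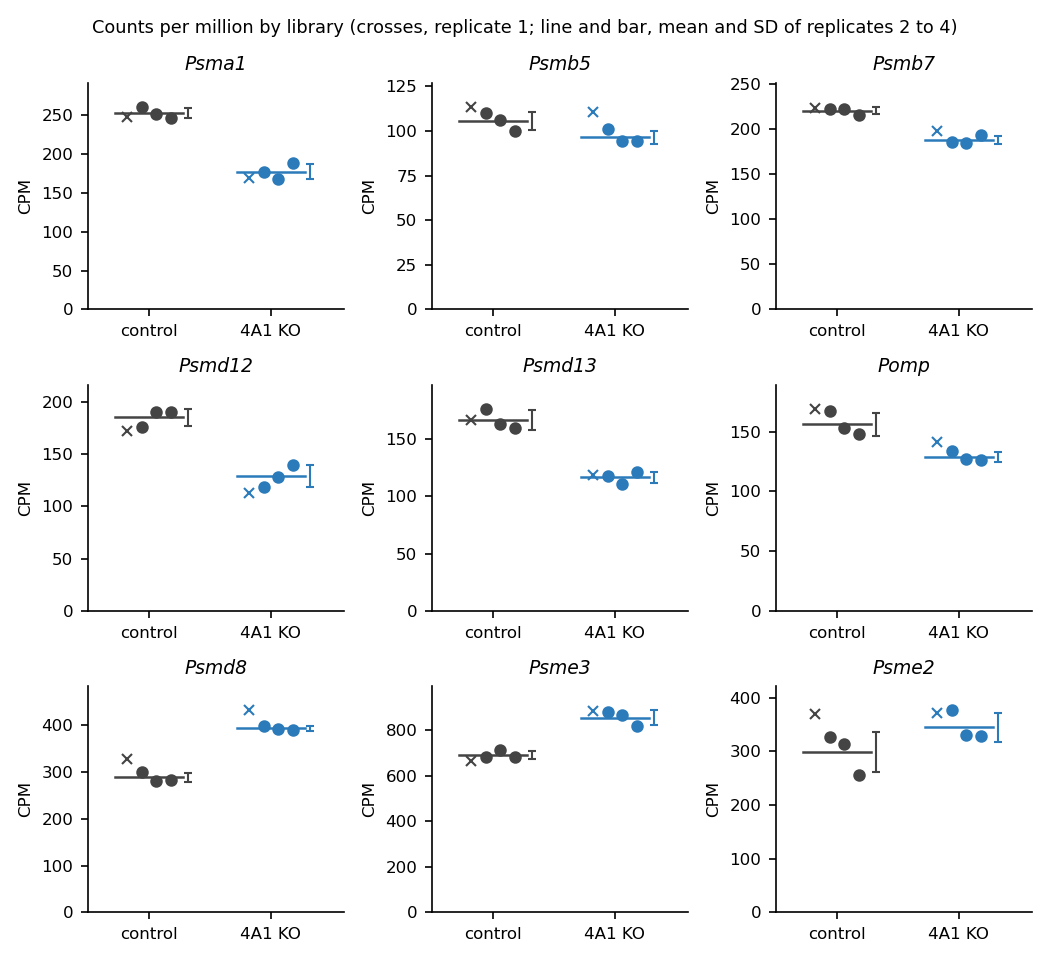
CPM (y axis, from 0) of 9 proteasome genes in each control (grey) and 4A1 KO (blue) library; crosses are replicate 1, dots replicates 2 to 4, and lines and bars the mean and SD of replicates 2 to 4. Psma1, Psmb7, Psmd12, Psmd13 and Pomp are lower in every 4A1 KO library, Psmd8 and Psme3 are higher in every one, and Psmb5 and Psme2 overlap.

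The promoters of the 48 members were searched for the core of the antioxidant response element (TGACNNNGC), the sequence bound by the NRF1 and NRF2 factors, in the 250 bases before and 50 after the start of each gene's canonical transcript in GRCm39. On either strand this core was found in 8 of the 48 promoters (16.7%), in 13.9% of the promoters of protein-coding genes tested and in 12.5% of all protein-coding genes of the tables. It was found in 5 of the 26 genes that fell, in 0 of the 6 that rose and in 3 of the 14 that did not pass. The CCAAT box (CCAAT on either strand) was found in 19 of 48 (39.6%), against 40.2% of the genes tested. Shown are 30 bases of the promoters of both catalytic subunits that hold the core, which did not pass the test, and of 3 regulatory particle genes that fell, each on its gene's strand with the core on either strand in capitals:
Psmb5, chr14:54855482-54855511, minus strand: gacgtgaagttgTGACGTCGCggcgttgcc
Psmb6, chr11:70416153-70416182, plus strand: acagaggcggactaaagagagTGACGGAGC
Psmc6, chr14:45567044-45567073, plus strand: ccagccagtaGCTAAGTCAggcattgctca
Psmd12, chr11:107370097-107370126, plus strand: gagatgttctGCTGTGTCAcatttgccccc
Psmd7, chr8:108315203-108315232, minus strand: tcaatgccaaGCTTCGTCAatagcctaagt
None of these 5 windows holds a CCAAT box. The match is of letters, and binding was not measured.

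The activators, which cap the 20S core in place of the 19S particle, did not fall. Of 5 genes 3 rose (60%, against 26.3% of all genes tested) and 2 did not pass, with a median log2 fold change of 0.18 and all 5 above 0. Without replicate 2, and likewise without the block, 1 rose, Psme3 (20%, near the 19.2% and 17.2% of all genes in these fits). Psme3 (chromosome 11 from 101206777 to 101215813, plus strand), the subunit of the nuclear PA28 gamma activator, had 667, 683, 714 and 681 CPM in control and 884, 881, 867 and 818 in 4A1 KO. All 4A1 KO libraries were higher, and the log2 fold change was 0.30 (SE 0.04, adjusted p = 0.000479). Psme2 (chromosome 14 from 55824895 to 55829173, minus strand), a subunit of the interferon-inducible PA28 activator, had 369, 326, 313 and 256 CPM in control and 372, 377, 330.4 and 329 in 4A1 KO. Control 1 lay within the range of the 4A1 KO libraries, and the log2 fold change was 0.21 (SE 0.06, adjusted p = 0.0127; 0.0626 without replicate 2 and 0.150 without the block). Its partner Psme1 had 0.12 (adjusted p = 0.0547), and Psme4, the large PA200 activator, had 0.09 (adjusted p = 0.133). Psme2b, which rose by 0.18 (adjusted p = 0.0285, but from 0.103 to 0.320 without replicate 2, without replicate 4, in all 8 libraries or without the block), is 99.4% identical to Psme2 over 795 nt, so their reads cannot be fully told apart. With both counted together the log2 fold change was 0.21 (SE 0.06, adjusted p = 0.0136).

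Of the 8 assembly factors 4 fell (50%, against 26.7% of all genes tested) and 1 rose (12.5%, against 26.3%). The 3 chaperones of the 19S base, Psmd5, Psmd10 and Psmd9, fell by 0.31, 0.29 and 0.17. Without replicate 2 or without replicate 3 Psmd5 alone of the 3 passed the test. Psmd10 had an adjusted p of 0.0813 and 0.0563 in these fits, and Psmd9 also missed the threshold without replicate 4, with upper quartile normalisation, with no filter, with DESeq2 and without the block (adjusted p from 0.0501 to 0.268 over these fits). Psmd5 (chromosome 2 from 34739746 to 34764980, minus strand) had 58.7, 71.6, 71.7 and 72.3 CPM in control and 54.0, 56.9, 57.9 and 59.5 in 4A1 KO (SE 0.05, adjusted p = 0.00126). Control 1 fell among the 4A1 KO libraries, while controls 2 to 4 lay close together above them. Of the 5 factors of the 20S core, 1 fell and 1 rose (20% each, no more than the share of all genes in either direction) and 3 did not pass. Pomp (chromosome 5 from 147797262 to 147840681, plus strand), the maturation factor that is degraded by the completed core, had 169, 167, 153 and 148 CPM in control and 141, 134, 127 and 126 in 4A1 KO. The groups did not overlap, and the log2 fold change was -0.27 (SE 0.05, adjusted p = 0.00139). Psmg4 (chromosome 13 from 34346937 to 34362166, plus strand), a chaperone of the alpha ring, had 21.7, 21.2, 20.2 and 16.7 CPM in control and 27.2, 26.6, 22.3 and 20.8 in 4A1 KO. Its groups overlapped, and the log2 fold change was 0.26 (SE 0.08, adjusted p = 0.02). It did not pass with DESeq2 (adjusted p = 0.0515), without the block (0.159), without replicate 2 (0.104) or without replicate 4 (0.0563). The other alpha ring chaperones Psmg1, Psmg2 and Psmg3 had 0.02, -0.01 and -0.13, none past the test.

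Of the genes matched by name only, Psmc3ip (chromosome 11 from 100981704 to 100986276, minus strand), which encodes a partner of the strand exchange proteins of homologous recombination, had the largest change of the whole set. It had 20.5, 25.1, 24.4 and 26.9 CPM in control and 12.2, 14.6, 15.2 and 16.4 in 4A1 KO. There was no overlap, and the log2 fold change was -0.73 (SE 0.08, adjusted p = 8.19e-05), a decrease of 39.6%. Its exons overlap those of Mlx on the opposite strand over 1109 nt, and the counts were made by strand. Psme3ip1 (chromosome 8 from 95300023 to 95328625, minus strand), which encodes a binding protein of the Psme3 product, had 45.8, 45.9, 51.9 and 53.3 CPM in control and 52.9, 60.6, 58.0 and 55.8 in 4A1 KO. The ranges overlapped, and the log2 fold change was 0.21 (SE 0.07, adjusted p = 0.0369). Without replicate 2 it was 0.11 (adjusted p = 0.257), and it did not pass without replicate 3 (0.0655), without the block (0.0800) or with DESeq2 (0.0550).

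Levels were compared between genes only in TPM, which are per length. In control B cells the highest mean levels of the members were 633 TPM for Psme2, 584 for Psma6 and 505 for Psme3, and the lowest of the 46 tested was 33.4 for Psmd5. The tested subunits of the core and the 19S particle lay between 160.1 TPM (Psmc6) and 584 TPM (Psma6), above the assembly factors other than Pomp, which lay between 33.4 (Psmd5) and 129 TPM (Psmg1). The order within the set moved with the genotype. Psmd8 went from rank 15 (354 TPM) in control to rank 3 (488 TPM) in 4A1 KO, and Psma1 from rank 8 (400.4 TPM) to rank 20 (281 TPM).

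Summed over the 14 core genes, control B cells had 4966 ± 63.6 TPM (SD, n = 3) and 4A1 KO B cells 4220 ± 71.0, so that the sum fell by 15.01%. That of the 17 genes of the 19S particle was 4883 ± 81.9 and 4392 ± 133 TPM, a decrease of 10.0%. With replicate 1 the control sums ran from 4895 to 5035 TPM for the core and from 4791 to 4948 for the 19S genes, and the 4A1 KO sums from 4152 to 4322 and from 4260 to 4537, without overlap in either. The spread of levels among the genes of a particle was measured as their coefficient of variation in each library. For the 19S genes it was 30.2% ± 2.37 in control and 38.2% ± 1.21 in 4A1 KO, and the lowest 4A1 KO library (37.2%) was above the highest control library (33.3%). Psmd8 carried most of this difference. Over the other 16 genes of the particle the coefficient was 31.0% ± 2.53 in control and 33.4% ± 1.63 in 4A1 KO, and the libraries overlapped. For the core the coefficient was 34.3% ± 0.70 and 34.8% ± 0.65, and the libraries overlapped. In both cases the 4A1 KO library was higher than its control within each pair, for the core by little in pair 3 (35.0% and 34.9%).

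**Figure D4:**
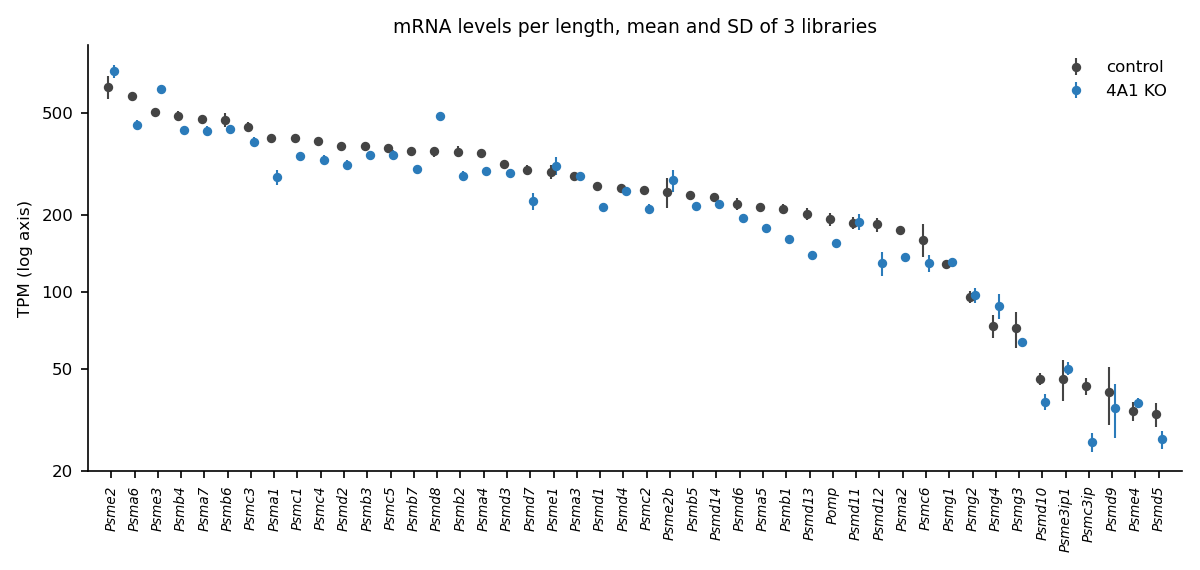
Mean TPM (y axis, log scale) of the 46 tested proteasome genes in control (grey) and 4A1 KO (blue), ordered by the control level, with bars of 1 SD over 3 libraries. Most subunits lie between 160.1 and 584 TPM in control, the assembly factors to the right lie lower, and Psmd8 and Psma1 change place.

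The deposited TPM, which were estimated apart from the counts but from the same reads, gave a like picture. With limma on log2(TPM + 1), 27 members were lower (26.6% of 12976 genes tested) and 4 higher (24.1%) at an adjusted p under 0.05. The 26 genes that fell in the counts were all among the 27, and the other was Psmb5, whose log2 fold change in TPM was -0.14 with an adjusted p of 0.0336. Psme2b and Psme3ip1, which rose in the counts, did not pass in TPM. The sign was the same in 44 of 46 members, and the fold changes of a gene differed by at most 0.065. In an exact permutation test of the TPM over the 8 libraries (two-sided), run for the 19 genes given in full, 12 had p = 0.0286, which with 4 against 4 is as low as this test goes. Its splits ignore the pairing of the libraries by batch and sex, and permuting within the 4 pairs could not go below 0.125. The other 7, with p from 0.0571 to 0.457, were Psmb5, Psmb6, Psmd14, Psmc6, Psmd5, Psme2 and Psme3ip1. With 3 against 3 such a test cannot go below 0.1.

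The genotype effect was then compared between males and females and between batches, as interaction terms over all 8 libraries. At an adjusted p under 0.05 the effect differed by sex in 0 of the 46 members (0% of 14211 genes) and by batch in 0 (0.00704% of genes, a count of 1). In the edgeR interaction test without adjustment, at a p under 0.05, 1 of the 46 members passed for sex (2.85% of all genes did), Psme2 (a log2 difference of -0.24, male minus female, adjusted p = 1), and 1 for batch (4.29% of all genes), Psmg3 (-0.36, batch B minus batch A, adjusted p = 0.999). With 2 pairs on each side these terms have little precision, and a p that misses the threshold does not show that the effects were alike.

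Further genes of the ubiquitin-proteasome pathway were examined in 4 lists. The 3 immunoproteasome genes fell (26.7% of all genes tested did), Psmb9 by 0.73 (SE 0.09), Psmb8 by 0.64 (SE 0.06) and Psmb10 by 0.25 (SE 0.07). Psmb10 was -0.15 without replicate 3 (adjusted p = 0.160) and did not pass without replicate 2 (0.0604) or without the block (0.170). The TPM ratio of Psmb8 to the subunit it replaces, Psmb5, was 1.59 ± 0.0599 in control and 1.13 ± 0.114 in 4A1 KO, that of Psmb9 to Psmb6 was 0.174 ± 0.0405 and 0.102 ± 0.0166, and that of Psmb10 to Psmb7 was 0.301 in both. For the first and second of these ratios the 4 4A1 KO libraries lay below the 4 control libraries. Of 9 further subunits and bound factors 2 fell (22.2%, against 26.7% of all genes tested) and 4 rose (44.4%, against 26.3%). The 2 that fell, Txnl1 and Uchl5, named after their values were seen, did not pass in any fit that left out a replicate. Akirin2, which carries proteasomes into the nucleus, had 22.6, 24.0, 24.6 and 29.96 CPM in control and 54.8, 54.4, 57.2 and 48.7 in 4A1 KO, a log2 fold change of 1.03 (SE 0.10, adjusted p = 5.6e-05). Ecpas, a proteasome adaptor and scaffold, rose by 0.49 (SE 0.05).

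The list of genes that act on proteasome gene transcription rose in all 7 of its members (100%, against 26.3% of all genes tested). The median was 0.68, and the genotypes overlapped in the 8 libraries for Mafk and Maff. Nfe2l2, which encodes NRF2, had 20.8, 16.7, 13.5 and 16.7 CPM in control and 52.1, 42.2, 31.9 and 27.3 in 4A1 KO, a log2 fold change of 1.10 (SE 0.12, adjusted p = 9.14e-05). Nfe2l1, which encodes NRF1, the factor known to induce proteasome genes when proteasome activity is short, had 171, 154, 183 and 185 CPM in control and 223, 211, 265 and 236 in 4A1 KO, a log2 fold change of 0.45 (SE 0.05, adjusted p = 0.000123). In both genes each 4A1 KO library was above each control library. Mafg, a small MAF partner of both factors, rose by 1.07 (SE 0.07). Of 11 genes of ubiquitin and its delivery to the proteasome 3 fell (27.3%, near the 26.7% of all genes) and 5 rose (45.5%, against 26.3%). The number that rose was 3 without replicate 2 or without replicate 4 and 2 without the block (19.2%, 24.7% and 17.2% of all genes tested). The largest changes were those of the shuttle factors Ubqln4 (0.54, SE 0.05) and Ubqln2 (-0.50, SE 0.06), in opposite directions.

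**Figure D5:**
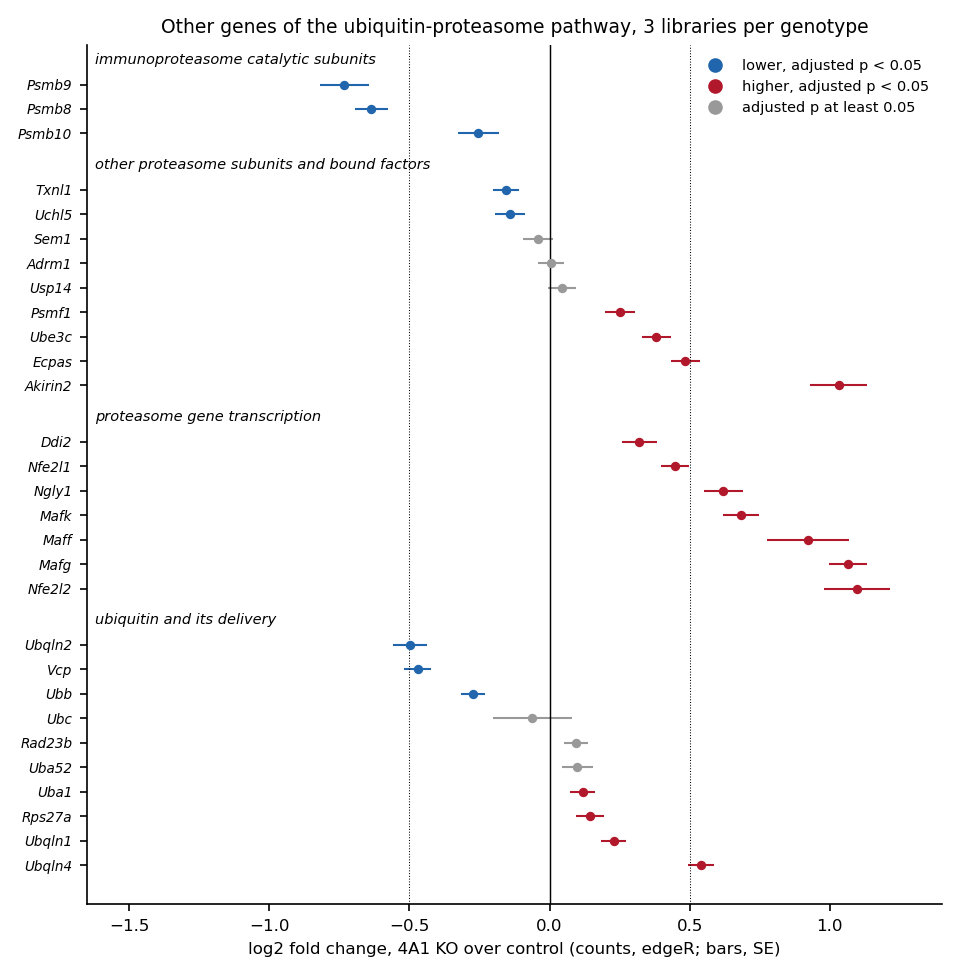
Log2 fold change (x axis, 4A1 KO over control, edgeR on counts, 3 libraries per genotype) of 29 of the 30 other genes of the ubiquitin-proteasome pathway tested, in 4 groups; bars are standard errors and dotted lines mark 0.5 on either side of 0. The 3 immunoproteasome genes lie left of 0 and the 7 genes of proteasome gene transcription right of it, up to 1.10 for Nfe2l2.

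Several members have near-identical processed pseudogenes, so that short reads can be assigned to either. Besides Psma3, the largest shares of counts on such copies were 12.1% and 9.68% of the counts of Psma5 (Gm12989 and Psma5-ps), 6.65% for Psma4 (Gm6542) and 6.62% for Psmb5 (Gm3375). The counts of the closest of these pseudogenes, and those of Psme2b, were added to their members. These pseudogenes were at least 96.4% identical over at least 615 nt and held at least 2.63% of the member's counts. The number that fell then stayed at 26, with 26 shared with the counts as deposited, and 5 of 45 rose because Psme2b was counted with Psme2.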

How the data were processed

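Raw read counts and TPM of 8 libraries were analysed. Per the study's methods and the labels, the authors trimmed the reads with Trim Galore 0.6.6, mapped them to GRCm39 with HISAT2 2.1.0 and deposited raw counts made with Seqmonk over merged isoforms by strand. The deposited TPM were calculated by the authors with StringTie 2.1.1. How multi-mapping reads were treated is not given in the sources used here. No per-sample column was left unused.

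Counts were filtered by genotype (filterByExpr), TMM-normalised and fitted over 14218 genes with edgeR 4.0.16 (R 4.3.3), with batch, sex and genotype as terms and replicate 1 left out. Tests were two-sided, adjusted with the Benjamini-Hochberg method over all genes tested. For the TPM, limma 3.58.1 was fitted to log2(TPM + 1) in the 12976 genes whose mean reached 1 TPM. In the 6 libraries batch and sex equal the replicate number as a block. The pairing rests on these labels, and across genes the deviations of same-numbered libraries had r of 0.594, 0.502 and 0.432, and those of other numbers -0.435 to 0.0186. SE are between libraries and come from the fit. Counting intervals were not computed.

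The members and gene lists were chosen with earlier results of these data known. Values in every library are given for the constitutive catalytic subunits, Psmd14, Pomp, the largest change of each role and the 5 largest changes each way. From each further list the 2 largest changes are named, with the immunoproteasome genes, Nfe2l1 and Nfe2l2. Other genes are named within counts of their role. Paaf1 was not analysed here, and 1 gene of the lists is counted but not reported singly. Positions come from GENCODE M39, in which all 48 members were found by identifier, copies from blastn 2.17.0 (at least 90% identity over 200 nt) and sequences from the GRCm39 genome. On simulated counts for this comparison (14218 genes, 200 changed) edgeR recovered 187 (93.5%) with 0 false calls, and 0 when none was changed. On simulated TPM (12976 genes) limma recovered 197 of 200 with 3 false calls. Neither simulation was matched to changes as small as the members' median of -0.18. Nor was either matched to the 3801 genes that fell and the 3737 that rose in the counts. They therefore give no error rate for the number of members that fell or rose. Alternatives were other normalisations (DESeq2's size factors, upper quartile), no filter, DESeq2 1.42.0 with and without shrinkage, glmTreat, leaving out each replicate, the use of all 8 libraries, no replicate block and a TPM pseudocount of 0.1. Summing copies was added after seeing the data.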

Additional observations from a re-analysis of the deposited data

Results flagged for a closer look

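Among the 19 proteasome genes given in every library, 38 groups of 4 libraries were examined for a library far from the others, and 2 were found where chance would give about 1.9 (1 in 20). Psmc6 in 4A1 KO 4 had 144 CPM, and its distance to the nearest library, at 136, was 0.929 of the range of the 4A1 KO group. Psmd5 in control 1 had 58.7 CPM, and its distance to the nearest control, at 71.6, was 0.943 of the range of the control group. Control 1 is in replicate 1, which took no part in the tests, and 4A1 KO 4 lies on the side of the controls.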

How the results depend on the processing

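The number of members that fell (26) was 23 to 28 under the other normalisations, filters, tools and sets of libraries that tested against no change, and 23 to 26 when a replicate was left out. The share of all genes tested that fell was 14.7% to 28.7% and 20.7% to 26.0% in these fits. The median of the members tested, -0.18, stayed between -0.21 and -0.16, against 0.00 to 0.03 for all genes. The number decreased beyond a log2 fold change of 0.5 (4) was 2 with upper quartile normalisation, 1 to 4 when a replicate was left out and 1 when glmTreat tested against 0.5 itself. The number that rose (6) was 2 without the replicate block and 2 to 5 when a replicate was left out, and in TPM (4) it was 2 without the block and 2 to 4. Of all genes tested 17.2% and 19.2% to 24.7% rose in these fits of the counts, and 15.5% and 15.5% to 21.1% in those of the TPM. Without the block 23 members fell in the counts (18.6% of all genes tested fell), and Psma7, Psmb4 and Psmd9 were lost. The number that fell in TPM (27) was 19 to 23 when a replicate was left out, with fewer libraries in the fit, and 21 without a TPM filter. Of all genes tested 19.1% to 23.3% and 9.60% fell in these fits, against 26.6% in the fit reported above. Of 460 values computed for the 46 members under the alternatives other than glmTreat and the summed copies, 415 kept their direction and side of the threshold. Another 30 no longer passed (Psma7, Psmb4, Psmd9, Psmd10, Psme2, Psme2b, Psme3ip1 and Psmg4) and 7 passed that had not (Psmb3, Psmb5, Psmb6, Psmd3, Psme1 and Psmg3). Of 300 for the genes of the other lists, 266 kept both, 28 no longer passed (Psmb10, Txnl1 and Uchl5 among them) and 3 passed that had not. No gene past the test changed sign in these fits. Among the members that did not pass, Psmg2, Psmd4, Psmc5 and Psmd11 changed sign under at least 1 alternative, with fold changes between -0.02 and 0.02 there.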
